A study of Homo sapiens with 8 samples.

Results

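The genes described here are 36 listed genes of the endoplasmic reticulum (ER) that fold secretory proteins, remove misfolded ones or sense their accumulation. They were taken by symbol from the array's gene annotation, with 1 transcript cluster (the set of probes summarized as 1 value) per gene, the one with the highest mean over the 8 arrays. Of the 36 genes, 34 had a cluster of their own among 18417 genes measured. PDIA3 and ATF6B were found only in clusters annotated with several gene symbols and were given no value. All arrays are of ZR-75-1, an established estrogen receptor-positive luminal breast cancer cell line, and 4 lines with 2 arrays each were compared. Both shEI24 clone 1 and shEI24 clone 2 are stable lines with short hairpin RNA (shRNA) against EI24, given by the submitters as independent clones. Cells with an shRNA against GFP (shGFP) are the control for the hairpin, and parental cells received no shRNA. EI24 encodes a membrane protein of the ER. Each shEI24 line is 1 clone, so that knockdown and clonal differences cannot be told apart within a line. Whether both arrays of a line stem from separate cultures is not stated, so the p-values reflect array-to-array spread that could be purely technical.

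Unfolded protein in the ER is sensed by IRE1 (gene ERN1), PERK (gene EIF2AK3) and ATF6, which the chaperone BiP (gene HSPA5) holds inactive in unstressed cells. IRE1 splices the XBP1 mRNA, PERK phosphorylates eIF2α and thereby favors translation of ATF4, and ATF6 is cut in the Golgi to release a transcription factor. Together these arms raise the transcription of chaperones, disulfide isomerases and the ER-associated degradation (ERAD) machinery, the program called the unfolded protein response. Secretory epithelial cells such as those of the breast carry a large ER and express many of these genes at high levels.

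EI24 itself was lower in every shEI24 array than in every control array, at log2 intensities of 8.64 and 8.43 in clone 1 and 9.25 and 9.19 in clone 2, against 11.97 and 11.91 in shGFP and 12.08 and 12.09 in parental cells. The lines differed in far more than the hairpin's target. All 10 luminal epithelial markers examined were lower in the shEI24 clones than in both controls, and their mean log2 intensity was 8.28 to 8.64 in the shEI24 arrays and 11.96 to 12.01 in the control arrays. ESR1, the estrogen receptor that defines the parental line, was at 5.81 to 6.11 in the shEI24 arrays and at 10.59 to 10.78 in the control arrays. Of 11 mesenchymal or fibroblast markers, 4 were higher in the shEI24 clones than in both controls (VIM, FN1, CDH2 and ZEB1) and 0 were lower, and the list's mean was 7.76 to 7.84 in the shEI24 arrays and 6.22 to 6.33 in the control arrays. CD68 and CD14 of 4 leukocyte markers were also higher (list mean 7.48 to 7.63 in the shEI24 arrays and 6.16 to 6.39 in the control arrays), as were KDR and PECAM1 of 4 endothelial markers (6.52 to 6.73 and 5.85 to 6.11), while PTPRC, which defines leukocytes, was at 4.20 to 4.54 in all arrays. The part of these differences in the ER genes' values was not tested.

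Several of the ER genes carry known stress elements close to their start sites, and those sites are shown because the comparison below returns to the genes that hold them. The ER stress response element (ERSE) binds ATF6 and XBP1 together with NF-Y and reads CCAAT, then 9 bases of any kind, then CCACG. ERSE-II reads ATTGG, then 1 base, then CCACG, and the core of the unfolded protein response element (UPRE), bound by XBP1 and ATF6, reads TGACGTGG. Promoters from 250 bases before to 50 after the start, from RefSeq (GRCh38.p14), were found for 31 of the 34 measured genes, and DERL1, DERL3 and SEC24D were not in that table. Exact matches on both strands were found in 10 of the 31 genes, and in 1.08% of all 27305 genes with a promoter. ERSE was in 6 of the 31 genes and in 0.0916% of all 27305 genes, ERSE-II in 3 and in 0.0696%, and the UPRE core in 2 and in 0.927%. The sites below are on the gene's own strand, 5′ to 3′, with the matched bases in capitals and 15 bases to either side; a match on the opposite strand reads as its reverse complement.
HSPA5, chr9:125241376-125241424, minus strand, ERSE: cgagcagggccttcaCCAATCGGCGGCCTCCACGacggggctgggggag
HSP90B1, chr12:103930201-103930354, plus strand, ERSE at 2 places: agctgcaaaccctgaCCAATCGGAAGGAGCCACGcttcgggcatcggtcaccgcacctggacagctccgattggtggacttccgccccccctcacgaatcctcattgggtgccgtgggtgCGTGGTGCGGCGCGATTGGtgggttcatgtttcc
HYOU1, chr11:119057259-119057408, minus strand, UPRE core overlapping an ERSE-II, and another ERSE-II: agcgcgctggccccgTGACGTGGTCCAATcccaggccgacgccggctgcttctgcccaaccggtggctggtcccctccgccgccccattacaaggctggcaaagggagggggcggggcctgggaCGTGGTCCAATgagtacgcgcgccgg
HERPUD1, chr16:56932010-56932050, plus strand, ERSE-II: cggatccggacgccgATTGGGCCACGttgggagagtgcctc
CALR, chr19:12938369-12938417, plus strand, ERSE: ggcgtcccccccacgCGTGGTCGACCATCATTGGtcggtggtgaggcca
CANX, chr5:179698763-179698811, plus strand, ERSE: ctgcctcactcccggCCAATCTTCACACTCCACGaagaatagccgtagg
CRELD2, chr22:49918539-49918587, plus strand, ERSE: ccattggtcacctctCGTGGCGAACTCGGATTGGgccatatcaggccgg
SDF2L1, chr22:21642099-21642139, plus strand, ERSE-II: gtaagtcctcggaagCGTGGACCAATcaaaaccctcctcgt
PDIA6 held an ERSE and DNAJC10 a UPRE core as well. A match describes the letters only.

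Against shGFP, 24 of the 34 genes (70.6%) were higher in the shEI24 clones and 2 (5.9%) lower at an adjusted p under 0.05, where 26.8% of all 18417 genes were higher and 29% lower. Against parental cells 20 genes (58.8%) were higher and 4 (11.8%) lower, beside 25.1% and 30.8% of all genes. Called the same way against both controls were 19 genes higher and 2 lower, and the shares over all genes were 20.8% higher and 25.8% lower. The median log2 fold change of the 34 genes was 0.38 against shGFP and 0.39 against parental cells, while that of all genes was 0.08 and 0.05. Both comparisons use the same shEI24 arrays. All 4 shEI24 arrays lay above all 4 control arrays for 18 of the 34 genes and below them for 2, as they did for 23.8% and 26.9% of all genes. Taking each line as 1 replicate, with the controls pooled, left 6 genes higher (HSPA5, HSP90B1, SYVN1, CREB3L1, CREB3L2 and SEC24D) and 1 lower (DERL1), with 14.9% and 18.6% of all genes called. At least 2-fold as well as significant were 4 genes against shGFP, 3 against parental cells and 2 against both, so most of the called differences were under 2-fold. The share of all genes passing 2-fold was not counted.

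The 3 chaperones of the HSP70 and HSP90 families were higher against both controls. HSPA5 encodes BiP, the ER's HSP70 chaperone and a classical readout of the unfolded protein response. Its log2 intensity was 13.03 and 13.02 in clone 1 and 12.93 and 12.85 in clone 2, against 11.64 and 11.60 in shGFP and 12.08 and 11.96 in parental cells. All shEI24 arrays thus lay above all control arrays, and the clones were close to each other. The difference was 1.34 ± 0.08 (SE) on the log2 scale against shGFP, or 2.53-fold (adjusted p = 6.66e-07 from limma), and 0.93 ± 0.08 or 1.91-fold against parental cells (adjusted p = 6.57e-06). HSP90B1, the ER's HSP90 (GRP94), was higher by 0.57 against shGFP and 0.46 against parental cells, with standard errors of 0.08. HYOU1, the HSP70-like protein that exchanges nucleotide on BiP, was at 10.65 and 10.66 in clone 1 and 10.03 in both arrays of clone 2, against 9.44 and 9.29 in shGFP and 9.72 and 9.69 in parental cells. Its rise was 0.98 against shGFP (adjusted p = 4.97e-06) and 0.64 against parental cells (adjusted p = 8.27e-05), and the clones did not overlap.

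Lectin chaperones hold glycoproteins while they fold. CALR (calreticulin), the soluble one, was higher by 0.57 against shGFP (adjusted p = 2.27e-04) and by 0.24 against parental cells (adjusted p = 0.0303). The smaller difference lost its call under centring of the arrays (0.18, adjusted p = 0.153) and without any one of clone 1 replicate 2, clone 2 replicate 1 or 2, or parental replicate 1 or 2 (0.20 to 0.27). In clone 2 alone CALR was 0.09 above parental cells (adjusted p = 0.447). CANX (calnexin), its membrane-bound relative, differed by 0.08 ± 0.07 and 0.10 ± 0.07 against shGFP and parental cells, neither past the threshold. The disulfide isomerases form and rearrange disulfide bonds. In the mean of the clones, 4 of 4 were higher against shGFP but only DNAJC10 also against parental cells. Clone 1 alone was higher than each control for 4 of 4, and clone 2 alone was higher than either control for 0 of 4. PDIA4 was 0.34 and 0.06 above shGFP and parental cells, PDIA6 0.29 and 0.17, and P4HB, the founding protein disulfide isomerase, 0.37 and 0.19. With the replicate number as a block in the model, PDIA6 (adjusted p = 0.0342) and P4HB (adjusted p = 0.0216) also passed against parental cells. DNAJC10 (ERdj5), a reductase that opens disulfides of ERAD substrates, was higher by 0.29 and 0.28. It missed the threshold against shGFP without either shGFP array (adjusted p = 0.105 and 0.0805) and against parental cells without either parental array (0.0554 and 0.104).

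The J-domain proteins, which hand clients to BiP, differed from one another. DNAJC3 (p58IPK), an inhibitor of PERK as well as a cochaperone, was at 10.07 and 9.76 in clone 1 and 9.18 and 8.91 in clone 2, against 8.50 and 8.35 in shGFP and 8.72 and 8.71 in parental cells. It rose by 1.05 ± 0.11 against shGFP (adjusted p = 4.62e-05) and 0.77 ± 0.11 against parental cells (adjusted p = 3.59e-04). Clone 1 stood well above clone 2, and every clone 2 array lay above every control array. Clone 2 alone was 0.34 above parental cells, not past the threshold (adjusted p = 0.0596, and 0.0125 with the replicate block). DNAJB11 (ERdj3) showed opposite positions of the clones: 10.64 and 10.57 in clone 1 and 9.76 and 9.74 in clone 2, against 10.11 and 10.05 in shGFP and 10.20 and 10.14 in parental cells. Clone 1 was above both controls (0.52 against shGFP, adjusted p = 7.11e-04, and 0.43 against parental cells, adjusted p = 0.0021) and clone 2 below both (-0.33, adjusted p = 0.0089, and -0.42, adjusted p = 0.0024). Their mean therefore sat at the controls, with 0.09 and 0.01. DNAJB9 (ERdj4), a cochaperone that represses IRE1, was 0.60 ± 0.13 above parental cells (adjusted p = 0.0032) and 0.17 ± 0.13 above shGFP, the second not past the threshold.

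Of the small stress proteins, MANF, a secreted factor that is retained in the ER by BiP, was higher by 0.72 against shGFP (adjusted p = 1.87e-04) and 0.47 against parental cells (adjusted p = 0.0026). In clone 2 alone MANF was 0.245 above parental cells, not past the threshold (adjusted p = 0.0973). CRELD2 differed from shGFP by 0.04 ± 0.09 and was 0.35 lower than parental cells (adjusted p = 0.0063). SDF2L1, a partner of DNAJB11, was -0.20 ± 0.09 against shGFP, not past the threshold, and fell by 0.36 against parental cells (adjusted p = 0.0071). Without parental replicate 1, CRELD2 (-0.28, adjusted p = 0.0758) and SDF2L1 (-0.34, adjusted p = 0.056) missed the threshold against parental cells.

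**Figure D1:**
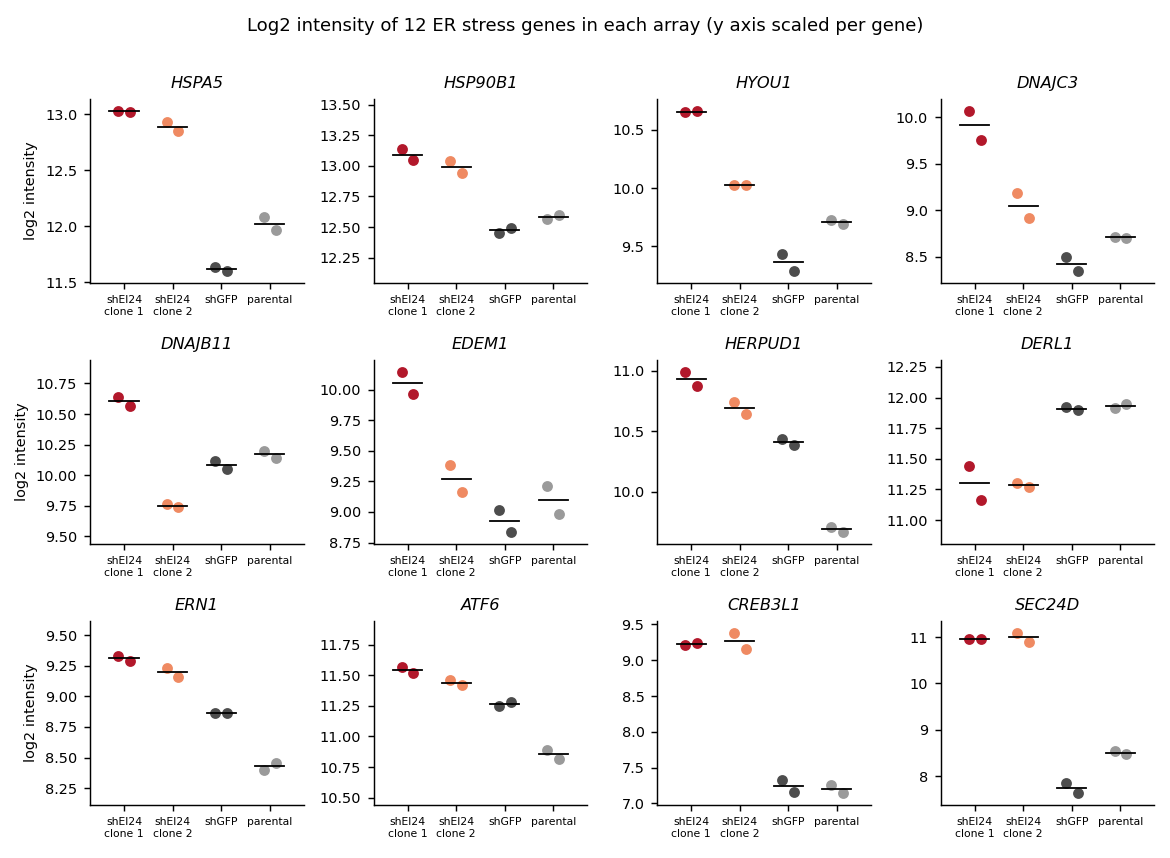
Log2 intensity (y axis, scaled for each gene) of 12 ER genes in clone 1 and clone 2 of the shEI24 cells, in shGFP and in parental cells (left to right); each point is 1 array and each line the mean of 2 arrays. HSPA5, CREB3L1 and SEC24D separate both clones from both controls, DERL1 does so downward, and DNAJB11 lies above the controls in clone 1 and below them in clone 2.

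ERAD genes recognize misfolded proteins, pull them through the ER membrane and mark them with ubiquitin. Of 9 measured, 5 were higher against both controls (HERPUD1, SYVN1, EDEM1, EDEM3 and DERL2) and 1 was lower (DERL1). SYVN1 encodes HRD1, the ubiquitin ligase at the center of the complex, and was higher by 0.70 against shGFP (adjusted p = 2.68e-05) and 0.52 against parental cells (adjusted p = 1.79e-04). Its partner SEL1L differed by 0.07 ± 0.08 and 0.10 ± 0.08, neither past the threshold. HERPUD1, a membrane protein of the same complex, was at 10.99 and 10.88 in clone 1 and 10.74 and 10.64 in clone 2, against 10.44 and 10.38 in shGFP and 9.71 and 9.67 in parental cells. Its difference was 0.40 against shGFP (adjusted p = 0.0016) and 1.13 against parental cells (adjusted p = 2.27e-06), since the controls were themselves 0.72 apart (shGFP minus parental, adjusted p = 0.0021).

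The EDEM proteins trim mannose from misfolded glycoproteins. EDEM1 was at 10.14 and 9.96 in clone 1 and 9.38 and 9.16 in clone 2, against 9.01 and 8.84 in shGFP and 9.21 and 8.98 in parental cells. Clone 1 stood apart, whereas the second array of clone 2 lay below the first parental array. The mean of the clones was higher by 0.74 against shGFP (adjusted p = 3.58e-04) and 0.57 against parental cells (adjusted p = 0.0018), but clone 2 alone was 0.18 above parental cells (adjusted p = 0.268, and 0.0465 with the replicate block). EDEM3 was higher by 0.57 and 0.61 against shGFP and parental cells, and EDEM2 differed by 0.05 ± 0.08 and -0.03 ± 0.08. In clone 2 alone EDEM3 was 0.27 above shGFP, not past the threshold (adjusted p = 0.0645, and 0.0386 with the replicate block).

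The derlins line the path through which substrates leave the ER, and they did not move together. DERL1 was at 11.44 and 11.16 in clone 1 and 11.30 and 11.27 in clone 2, against 11.92 and 11.90 in shGFP and 11.91 and 11.95 in parental cells. It was the ERAD gene that fell, by 0.62 on the log2 scale against shGFP (adjusted p = 3.40e-04) and by 0.64 against parental cells (adjusted p = 2.64e-04). DERL2 was higher by 0.53 (adjusted p = 2.89e-04) and 0.39 (adjusted p = 0.0018). DERL3 varied widely within lines, at 7.54 and 7.98 in clone 1, 7.58 and 8.14 in clone 2, 7.43 and 7.54 in shGFP and 7.16 and 7.87 in parental cells, and its differences of 0.32 ± 0.22 and 0.29 ± 0.22 did not pass. With the replicate block its difference from shGFP passed (adjusted p = 0.0412).

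The mRNAs of the 3 sensors moved in both directions. ERN1, which encodes IRE1, was at 9.33 and 9.29 in clone 1 and 9.23 and 9.16 in clone 2, against 8.87 and 8.86 in shGFP and 8.40 and 8.46 in parental cells. It was higher by 0.39 against shGFP (adjusted p = 0.0014) and 0.82 against parental cells (adjusted p = 1.12e-05). ATF6 was at 11.57 and 11.51 in clone 1 and 11.46 and 11.42 in clone 2, against 11.25 and 11.28 in shGFP and 10.89 and 10.82 in parental cells. For both genes shGFP lay between the clones and the parental cells, and ATF6 was higher by 0.64 against parental cells (adjusted p = 6.00e-05) but by 0.22 against shGFP (adjusted p = 0.0257). That smaller call was lost after centring (adjusted p = 0.0944) and without clone 2 replicate 1 (0.0553) or shGFP replicate 1 (0.168) or 2 (0.114). In clone 2 alone ATF6 was 0.17 above shGFP, not past the threshold (adjusted p = 0.112). EIF2AK3, which encodes PERK, went the other way, at 8.43 and 8.25 in clone 1 and 8.28 and 8.01 in clone 2, against 8.62 and 8.55 in shGFP and 8.73 and 8.69 in parental cells. All of its shEI24 arrays lay below all control arrays, by -0.34 against shGFP (adjusted p = 0.0159, and 0.119 and 0.0611 without shGFP replicate 1 and 2) and -0.47 against parental cells (adjusted p = 0.0031).

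CREB3L1 (OASIS) and CREB3L2 (BBF2H7) are ER-anchored transcription factors that are cut in the Golgi like ATF6. CREB3L1 was at 9.21 and 9.24 in clone 1 and 9.38 and 9.16 in clone 2, against 7.32 and 7.16 in shGFP and 7.26 and 7.15 in parental cells. All arrays of both clones stood above all control arrays, 4.02-fold above shGFP (log2 2.01 ± 0.09, adjusted p = 1.97e-07) and 4.12-fold above parental cells (log2 2.04 ± 0.09, adjusted p = 1.93e-07). CREB3L2 was at 9.64 in both arrays of clone 1 and at 9.54 and 9.68 in clone 2, against 8.90 and 8.92 in shGFP and 8.90 and 8.81 in parental cells. It was higher by 0.71 ± 0.08 (adjusted p = 4.33e-05) and 0.77 ± 0.08 (adjusted p = 2.62e-05), again with the clones close together.

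SEC24D, a cargo-binding subunit of the COPII coat that carries proteins out of the ER, had the largest difference of the 34 genes against either control. Its log2 intensity was 10.95 and 10.97 in clone 1 and 11.09 and 10.90 in clone 2, against 7.85 and 7.65 in shGFP and 8.55 and 8.47 in parental cells. It was 9.38-fold above shGFP (log2 3.23 ± 0.09, adjusted p = 1.04e-08) and 5.54-fold above parental cells (log2 2.47 ± 0.09, adjusted p = 5.51e-08), while shGFP was below parental cells by -0.76 (adjusted p = 0.0035). In mice, loss of CREB3L2 is known to impair COPII-dependent secretion of cartilage matrix; no link between the genes was tested in these arrays. SSR1, a subunit of the translocon-associated protein complex, was higher by 0.38 against each control. STT3A, the catalytic subunit of the oligosaccharyltransferase that glycosylates proteins as they enter the ER, was higher by 0.55 and 0.42. In RefSeq order STT3A is also the next protein-coding gene to EI24 on chromosome 11. Beyond it lie CHEK1 (0.42 and 0.32 against shGFP and parental cells) and ACRV1 (-0.29 and -0.43). On EI24's other side lie FEZ1 (-0.77 and -0.55), PKNOX2 (0.08 and 0.145) and TMEM218 (-0.49 and -0.255). SEC61B, a subunit of the translocation channel, was 0.21 above shGFP (adjusted p = 0.0295) and -0.14 against parental cells, not past the threshold, and it lost its call without clone 1 replicate 2 (adjusted p = 0.0523), clone 2 replicate 2 (0.074), or shGFP replicate 1 (0.178) or 2 (0.13), after centring (0.0962) and against the pooled controls (a difference of 0.04, adjusted p = 0.575). WFS1 (wolframin) was 0.53 above shGFP (adjusted p = 2.25e-04) and 0.03 ± 0.07 above parental cells, and shGFP was itself -0.51 against parental cells (adjusted p = 0.0080, and 0.0815, 0.082 and 0.0687 without shGFP replicate 1, shGFP replicate 2 and parental replicate 1).

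Among the 10 genes with a stress element in the window, 6 were higher against both controls (HSPA5, HSP90B1, HYOU1, CALR, DNAJC10 and HERPUD1) and 0 were lower. The other 4 were CANX, PDIA6, CRELD2 and SDF2L1. Of the 21 genes with a promoter and no match, 12 were higher and 1 was lower, and over all genes 20.8% were higher and 25.8% lower. The genes with and without a match were not tested against each other. HSPA5 and CRELD2 each carry a full ERSE, and their differences were 1.34 and 0.04 against shGFP and 0.93 and -0.35 against parental cells. That of CRELD2 against shGFP was not past the threshold.

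The controls differed from each other in 9 of the 34 genes. In shGFP, 3 were higher than in parental cells (HERPUD1, ERN1 and ATF6) and 6 lower (HSPA5, HYOU1, CRELD2, SEC61B, SEC24D and WFS1), where 3.21% of all genes were higher and 7.44% lower. HSPA5 was -0.40 in shGFP against parental cells (adjusted p = 0.021) and HYOU1 -0.35 (adjusted p = 0.0392), so for both genes the difference of the clones from parental cells was the smaller one. The counts became 1 higher and 1 lower without shGFP replicate 1, shGFP replicate 2 or parental replicate 1, and 1 higher and 2 lower without parental replicate 2. The calls of 7 genes (HSPA5, HYOU1, CRELD2, ERN1, ATF6, SEC61B and WFS1) were each lost when some single array was left out.

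Each clone was then set against each control. Clone 1 was higher than shGFP for 25 genes and lower for 1, beside 23% and 26.6% of all genes, and higher than parental cells for 26 and lower for 2, beside 21.3% and 28.6%. Clone 2 was higher than shGFP for 18 and lower for 4, beside 25.2% and 27.8%, and higher than parental cells for 15 and lower for 5, beside 23.9% and 29.2%. Clone 1 was higher than both controls for 25 genes and clone 2 for 12, and each clone exceeded each control in 12 genes: HSPA5, HSP90B1, HYOU1, HERPUD1, SYVN1, DERL2, ERN1, CREB3L1, CREB3L2, SSR1, STT3A and SEC24D. DERL1 was lower in each clone against each control. The shares of all genes passing these joint calls were not counted, so the 25 and 12 genes have no such share beside them. With the replicate block the 12 became 15, with DNAJC3, EDEM1 and EDEM3 added, and EIF2AK3 joined DERL1, which made 2 lower. The 12 became 7 without either shGFP array, with HERPUD1, DERL2, ERN1, SSR1 and STT3A lost, and 8 without parental replicate 2 (HYOU1, DERL2, SSR1 and STT3A lost) or clone 2 replicate 1 (HERPUD1, DERL2, SSR1 and STT3A lost). Clone 2's count above shGFP dropped to 10 without shGFP replicate 2, its count below shGFP to 2 without shGFP replicate 1, and clone 1's count below parental cells to 1 without clone 1 replicate 2 or either parental array. With the replicate block clone 1 was lower than shGFP for 2 genes, the added one being EIF2AK3 (adjusted p = 0.0354).

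Tested directly, clone 1 was higher than clone 2 for 13 of the 34 genes and lower for 0, where 9.29% of all genes were higher and 5.88% lower. By an unadjusted p under 0.05, 0 of the 34 genes were lower in clone 1 with limma and 0 with the methods' t-test. The share of all genes at that unadjusted threshold was not counted. The clone 1 mean was above the clone 2 mean for 29 of the 34 genes and for 45.8% of all genes, and the median difference was 0.24 for the 34 genes and -0.02 for all genes. DNAJC3 (0.86, adjusted p = 0.0033), DNAJB11 (0.85, adjusted p = 4.25e-04) and EDEM1 (0.78, adjusted p = 0.0042) differed most between the clones, followed by HYOU1 (0.63) and EDEM3 (0.61). All 4 disulfide isomerases were among the 13, at 0.31 to 0.46, as were SEL1L (0.51), MANF (0.46), WFS1 (0.45) and STT3A (0.34).

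Several of the genes with a large rise over the controls showed no called difference between the clones. The difference between clone 1 and clone 2 was 0.14 ± 0.09 for HSPA5, -0.04 ± 0.11 for SEC24D, -0.05 ± 0.11 for CREB3L1 and 0.03 ± 0.09 for CREB3L2. Of the 5 sensors and ER-anchored factors 0 passed, where 9.29% of all genes were higher in clone 1 and 5.88% lower, so a count of 0 among so few genes says little. HYOU1 and STT3A were at once higher in each clone than in each control and higher in clone 1 than in clone 2. The clone call of STT3A was lost after centring (adjusted p = 0.0507), with the clone arrays alone (0.124) and without clone 1 replicate 1 (0.116), clone 2 replicate 1 (0.103) or 2 (0.102), or either shGFP array (0.0683). Residual EI24 also differed between the clones (-0.68, adjusted p = 0.0023, lower in clone 1), as did the luminal marker KRT19, at 9.85 and 9.96 in clone 1 and 12.16 and 12.12 in clone 2. The clones lay closer in the mean of all 10 luminal markers, at 8.28 to 8.34 in clone 1 and 8.55 to 8.64 in clone 2. The part of EI24 and KRT19 in the clone difference was not tested. The count of 13 became 7 without clone 2 replicate 2, 6 when the spread was estimated from the clone arrays alone, and 16 with the replicate block, where CALR (adjusted p = 0.0279), HERPUD1 (0.0362) and, barely, DERL2 joined. It was 0 at a threshold of 2-fold and 0 by the methods' t-test after Benjamini-Hochberg adjustment. The calls of 7 genes (PDIA6, P4HB, DNAJC10, MANF, SEL1L, STT3A and WFS1) were each lost when some single array was left out.

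**Figure D2:**
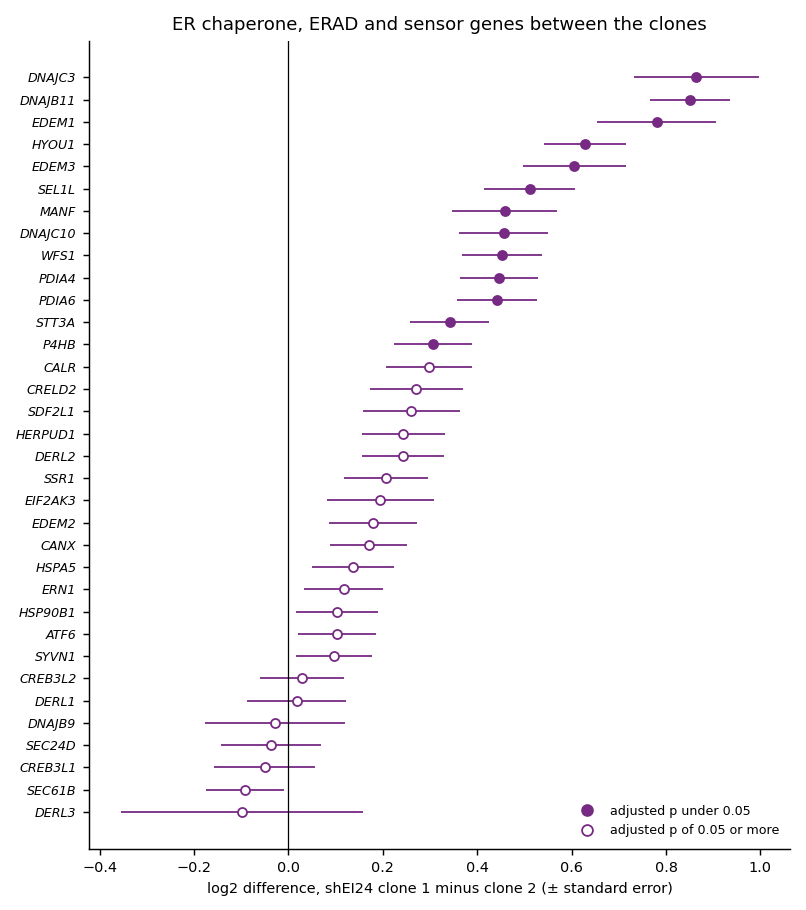
Log2 difference between shEI24 clone 1 and clone 2 (x axis, positive where clone 1 is higher, bars are standard errors) for the 34 genes, ordered by size. The 13 filled points passed an adjusted p of 0.05 and all lie right of 0, from P4HB at 0.31 to DNAJC3 at 0.86, while HSPA5, CREB3L1, CREB3L2 and SEC24D lie near 0.

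Other genes of the secretory pathway were counted in the same way, with no test against the 34 genes. In 8 further lists, with 198 of 211 genes measured, 49 genes (24.7%) were higher and 56 (28.3%) lower against both controls, beside 20.8% and 25.8% of all genes, and the median log2 fold change was 0.01 against shGFP and -0.02 against parental cells. The lower count was 36 without shGFP replicate 1. Of 27 other ER chaperones 6 were higher and 8 lower, with CLGN (2.90 and 3.38 against shGFP and parental cells), FKBP14 (1.69 and 1.98) and HSPA13 (1.04 and 1.59) up and FKBP10, a collagen chaperone, down (-3.56 and -3.35). Of 22 other isomerases and oxidases 9 were higher and 4 lower, with list medians of 0.14 and 0.15, and the risers included the oxidases ERO1B (2.87 and 2.85) and QSOX1 (2.88 and 2.50), TMX4 (1.85 and 1.33) and GPX8 (0.97 and 1.94).

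Among 38 other ERAD genes 8 were higher and 9 lower. For this and the next lists the shares over all genes were again 20.8% higher and 25.8% lower. The largest changes in the ERAD list were those of the deubiquitinase YOD1 (3.60 and 3.67) and SEL1L3 (1.41 and 1.63) upward and of the ubiquitin ligase RNF139 (-2.27 and -2.17) and UBXN8 (-1.32 and -0.91) downward. Of 33 genes of the translocon, signal peptidase and related targeting machinery 7 were higher, with TRAM2 at 1.69 and 1.47, and 11 lower, with GET1 at -2.17 and -2.10, SEC11A at -1.26 and -1.16 and EMC3 at -1.10 and -1.28. Unlike STT3A, 0 of 10 other oligosaccharyltransferase subunits were higher, and TMEM258 (-0.45 and -0.45), RPN1 (-0.22 and -0.45) and DDOST (-0.25 and -0.27) were lower. Of 26 other COPII and ER export genes, with list medians of 0.26 and 0.08, 9 were higher, among them KDELR3 (1.30 and 0.93), a receptor that returns escaped chaperones to the ER, and MCFD2 (1.19 and 1.06), and 5 were lower, among them KLHL12 (-1.38 and -1.01) and SEC16A (-0.97 and -1.30). In the list of 12 ER-phagy and ER-shaping genes 4 were higher, RTN4 (1.39 and 1.19), CKAP4 (1.30 and 0.92), ATL1 (0.81 and 1.20) and CALCOCO1 (0.56 and 0.80), and 3 were lower.

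Of 30 other transducers and factors of the response, 6 were higher, 13 lower and 11 neither against both controls, beside 20.8% and 25.8% of all genes higher and lower, and the list's median was -0.31 against shGFP and -0.11 against parental cells. XBP1, whose spliced form drives ERAD and chaperone genes, was at 10.80 and 10.72 in clone 1 and 11.26 and 11.18 in clone 2, against 12.74 and 12.65 in shGFP and 12.15 and 12.05 in parental cells. It was -1.70 against shGFP (adjusted p = 1.90e-07) and -1.11 against parental cells (adjusted p = 2.80e-06), and lower in clone 1 than in clone 2 (-0.46, adjusted p = 0.01). These values are of the whole transcript and do not separate spliced from unspliced XBP1 mRNA.

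ATF4, the factor downstream of PERK, was at 10.19 and 10.09 in clone 1 and 10.24 and 10.17 in clone 2, against 10.72 and 10.68 in shGFP and 10.25 and 10.07 in parental cells, so that it was lower than shGFP (-0.53, adjusted p = 5.22e-04) and 0.01 ± 0.08 from parental cells, not past the threshold. DDIT3 (CHOP), its proapoptotic target, was called in opposite directions by the controls: it was at 8.85 and 8.64 in clone 1 and 9.71 and 9.42 in clone 2, against 9.92 and 9.85 in shGFP and 7.81 and 7.53 in parental cells. The shEI24 clones lay between them, -0.73 against shGFP (adjusted p = 5.81e-04) and 1.48 against parental cells (adjusted p = 5.93e-06), and shGFP exceeded parental cells by 2.22 (adjusted p = 8.51e-05). PPP1R15A (GADD34), which reverses eIF2α phosphorylation, was higher by 2.58 and 2.56, and the inflammatory caspase gene CASP4 by 4.77 and 4.71. CREB3L4, a relative of CREB3L1, was -2.86 and -2.10, and GTF2I, a transcription factor known to bind the ERSE, -2.24 and -2.19. DDIT3 (-0.81, adjusted p = 0.0049) and PPP1R15A (-0.74, adjusted p = 0.0014) were lower in clone 1 than in clone 2.

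**Figure D3:**
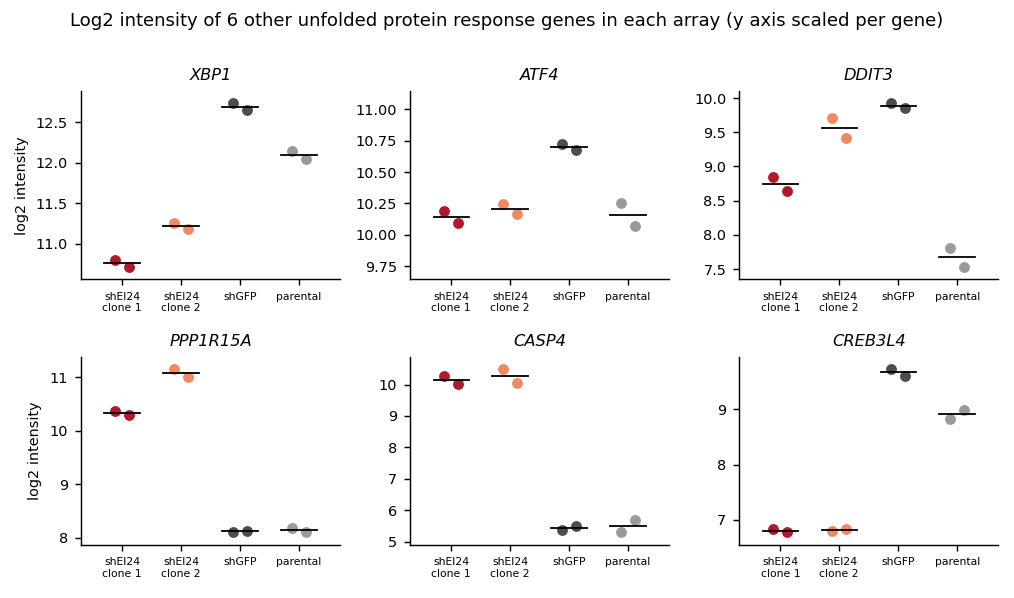
Log2 intensity (y axis, scaled for each gene) of XBP1, ATF4, DDIT3, PPP1R15A, CASP4 and CREB3L4 in clone 1 and clone 2 of the shEI24 cells, in shGFP and in parental cells (left to right); each point is 1 array and each line the mean of 2 arrays. XBP1 and CREB3L4 are below both controls in both clones, PPP1R15A and CASP4 are above them, and DDIT3 lies between shGFP and parental cells.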

How the data were processed

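RNA of the 4 ZR-75-1 lines was hybridized to 8 Affymetrix arrays. The authors deposited log2 intensities, 1 per transcript cluster and array, made with GCOS and RMA per the submitters' notes, whose versions the sources used here do not state. RMA includes a background correction and a quantile normalization, so that a shift shared by most genes would be removed. An exon 1.0 st array is named in the methods, whereas the row identifiers matched the Human Gene 1.0 ST annotation. Of 33297 clusters, 19460 carried 1 gene symbol, 1754 several and 12083 none in the annotation used. The brightest cluster of each gene was kept, which left 18417 genes and set aside 1043 clusters. Array medians were 7.28 to 7.39. The number of arrays limits the precision.

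Linear models with 1 mean for each line (limma 3.58.1 under R 4.3.3, functions lmFit and eBayes) left 4 residual degrees of freedom, and p-values were adjusted by Benjamini-Hochberg over all 18417 genes, two-sided, with a threshold of 0.05. On data simulated for the clones against shGFP with 18417 genes, 33.3% of changes of 0.5 and 45.8% of -0.5, 89.2% of 1 and 85.8% of -1, and 100% of 2 on the log2 scale were recovered. Only a small share of the genes was changed in that simulation, whereas 26.8% were called higher and 29% lower in the arrays. The adjustment is stricter where few genes change, so these recovery shares do not carry over to the arrays. The arrays of a line correlated at 0.993 to 0.997 and were not copies of each other. Arrays with the same replicate number deviated together in every pair of lines (correlation of replicate differences 0.25 to 0.59), so the labels' numbers were treated as pairing the arrays in an alternative with a replicate block.

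The ER genes and all lists were chosen with earlier results of these data known. Every measured ER gene is named. Array values are printed for those at least 0.7 on the log2 scale from both controls, or from clone to clone or control to control, and for HSPA5 and the sensors, with HYOU1 and DERL1 and DERL3 added after their values were seen. ESR1, KRT19 and PTPRC were singled out from the marker list after its values were seen, and FEZ1 and the further neighbours of EI24 were named for their position. From each further list up to 4 genes with the largest change called against both controls are named, plus XBP1, ATF4 and DDIT3. C-terminal ER retrieval motifs were not analysed here. Alternatives were another control, line means as replicates, the replicate block, only the arrays compared, another variance model, second quantile normalization, median centring, a filter on the dimmest 0.25 of genes, all clusters of a gene, a 2-fold threshold, the methods' t-test, and leaving out each array.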

Additional observations from a re-analysis of the deposited data

Results flagged for a closer look

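Differences between the clones under the same comparison with the controls, tested as clone 1 minus clone 2 on the log2 scale with limma, were found for 13 of the 34 ER genes, all higher in clone 1. They were DNAJC3 (0.86), DNAJB11 (0.85), EDEM1 (0.78), HYOU1 (0.63), EDEM3 (0.61), SEL1L (0.51), DNAJC10 (0.46), MANF (0.46), PDIA4 (0.45), WFS1 (0.45), PDIA6 (0.44), STT3A (0.34) and P4HB (0.31). Among the other named genes, CLGN (0.89), UBXN8 (0.82), FKBP10 (0.70), TMX4 (0.66), GPX8 (0.53), DDOST (0.43), EMC3 (0.39), SEC11A (0.32) and RPN1 (0.30) were higher in clone 1. YOD1 (-1.02), DDIT3 (-0.81), PPP1R15A (-0.74), EI24 (-0.68) and XBP1 (-0.46) were lower in clone 1. With 2 arrays per line, no line was large enough to be searched for a single array far from the others.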

How the results depend on the processing

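The number of arrays, 2 per line, limits what these comparisons can show. In the simulation, changes of 0.5 on the log2 scale were missed more often than larger ones, but its recovery shares do not carry over to the arrays. Among the ER genes called in the shEI24 clones, 5 lost their call against shGFP (PDIA6, DNAJC10, EIF2AK3, ATF6 and SEC61B) and 4 against parental cells (CALR, DNAJC10, CRELD2 and SDF2L1) when some single array was left out. Leaving out 1 array gave 20 to 24 genes higher and 1 to 2 lower against shGFP, 18 to 20 and 2 to 4 against parental cells, and 17 to 19 and 1 to 2 against both. For clone 1 the ranges were 23 to 25 higher and 1 lower against shGFP and 22 to 26 and 1 to 2 against parental cells. For clone 2 they were 10 to 19 and 2 to 4 against shGFP and 10 to 16 and 5 against parental cells. Clone 1 was higher than clone 2 for 7 to 12 genes, and shGFP higher than parental cells for 1 to 3 and lower for 1 to 6. In the further lists 42 to 53 genes were higher and 36 to 60 lower.

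A threshold of 2-fold left 4 higher and 0 lower against shGFP, 3 and 0 against parental cells, and 2 and 0 against both. It left 6 and 0 for clone 1 against shGFP, 5 and 0 for clone 1 against parental cells, 3 and 0 for clone 2 against either control, 0 between the clones, 0 and 0 between the controls, and 14 and 11 in the further lists. With each line as 1 replicate 6 were higher and 1 lower. The methods' t-test after Benjamini-Hochberg gave 11 and 1 against shGFP, 9 and 1 against parental cells and 8 and 1 against both. By the same test clone 1 had 0 lower against shGFP and 11 higher and 0 lower against parental cells, clone 2 had 11 higher and 2 lower against shGFP and 2 lower against parental cells, the clones differed in 0, the controls in 0 and 0, and 29 were lower in the further lists. Unadjusted, it gave 1 lower against shGFP, 12 higher against parental cells, 11 and 1 against both, 2 lower for clone 2 against shGFP and 11 lower between the controls. Estimating the spread from the clone arrays alone gave 6 genes between the clones. The replicate block gave 2 lower for clone 1 against shGFP and 2 lower in each clone against each control, and changed no other of these counts by over 1.5 times. Second quantile normalization gave 1 lower for clone 1 against parental cells, and medians over the ER genes of 0.51 against shGFP and 0.47 against parental cells, and centring gave 0.33 against parental cells. The causes were not tested.

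The sign turned for values near 0. Against parental cells, centring gave -0.003 for PDIA4, -0.053 for DNAJB11, -0.034 for WFS1 and -0.046 for ATF4, second quantile normalization 0.124 for EDEM2, and all clusters -0.003 for ATF4. Leaving out 1 array gave, against parental cells, -0.021 to 0.034 for DNAJB11 (-0.012 without clone 1 replicate 1), -0.109 to 0.039 for EDEM2, -0.060 to 0.648 for DERL3, -0.018 to 0.070 for WFS1 and -0.078 to 0.105 for ATF4, and -0.003 to 0.092 for CRELD2 against shGFP. With the controls pooled, with arrays or lines as replicates, CRELD2 was -0.154 and DDIT3 0.375. Of the values whose sign turned, only that of DDIT3 was called, with arrays as replicates (adjusted p = 0.0079) but not with lines (0.729).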
